A study of Homo sapiens with 6 samples.

Results

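The gene set described here holds 48 cell cycle and DNA replication genes, measured by RNA sequencing in HK-2, an immortalized cell line from the proximal tubule of the human kidney. Its members were named by symbol, without a threshold on their values but with earlier results of these data known, and all 48 were found among the 31369 genes of the count table. By the part of the cycle in which each gene is best known to act, 26 were placed in a G1/S set and 22 in a G2/M set. The study compared 3 control samples (NC) with 3 samples overexpressing PPM1K (OE), the mitochondrial phosphatase that activates branched-chain amino acid breakdown. The genotype entries give wild type for NC and PPM1K overexpression for OE, the time entry is day 10 for all 6 samples, and every sample also carries an entry for chronic kidney disease as its treatment. The sample titles instead name a short hairpin control and a short hairpin against PPM1K, so the groups were taken from the genotype entries. PPM1K had 37, 19 and 53 counts in NC replicates 1, 2 and 3 and 3294, 3531 and 2919 counts in OE replicates 1, 2 and 3, a log2 fold change of 6.39 (SE 0.13, edgeR adjusted p = 1.1e-18), which is the direction of the genotype entries. The cells received the PPM1K plasmid by lipid transfection in serum-free medium, and what the NC cells received is not given in the sources used here. The cell type entry is HK-2 for all 6 samples, but the number after HK in the cell line entry differs from sample to sample, and nothing in the labels or methods describes a second line.

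The cell cycle runs from growth (G1) through DNA synthesis (S) and a further gap (G2) to mitosis (M). Cyclin D with CDK4 or CDK6, and then cyclin E with CDK2, phosphorylate the RB protein and so free E2F factors, which switch on the genes for DNA replication. Later, B-MYB and FOXM1 switch on the genes for mitosis, whose products condense and move the chromosomes and are then destroyed through the anaphase-promoting complex. Proximal tubule cells divide little in the healthy kidney and re-enter the cycle after injury, while HK-2 cells divide in culture.

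Values per sample are given below in the order of replicates 1, 2 and 3, as CPM, which are counts divided by the library size as scaled by edgeR. FPKM, which also divides by transcript length, is used wherever levels of different genes are compared. A gene was called higher or lower when its adjusted p for OE over NC was under 0.05 by the quasi-likelihood test of edgeR, adjusted by Benjamini-Hochberg over the 15878 genes tested. Nothing in the labels says that the 3 samples of a group came from separate cultures, so the p-values measure only the spread between these samples, which may be technical. Total counts were 34635770 to 36116963 in NC and 36033404 to 39850802 in OE, and the members had mean counts between 198 and 45342, so counting error was small for nearly all of them. NC replicate 2 stood apart in having 26478 genes with a count, against 22094 to 22913 in the other 5 samples.

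Of the 48 members, 13 were higher in OE, 17 were lower and 18 were not called. Across all genes tested, 24.9% were higher, 23.7% were lower and 48.6% were called in either direction, and among the 10193 genes with mean counts in the range of the members these shares were 32.9%, 25.9% and 58.7%. In the G1/S set, 9 of 26 genes (34.6%) were higher and 6 (23.1%) lower, which is near the background of genes of like counts. In the G2/M set, 4 of 22 genes (18.2%) were higher and 11 (50%) lower. The lower share of the G2/M set was above the background of lower calls, but the difference between the sets was not tested. Leaving out each sample in turn gave 9 to 11 lower G2/M genes, with 9 without NC replicate 2. This was not particular to that sample, as BUB1 and TOP2A lost their calls without NC replicate 2 and also without OE replicate 1.

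The changes were small. The log2 fold changes of the members ran from -0.74 for KIF20A to 0.81 for CCND1. No member passed a 2-fold change with an adjusted p under 0.05, whereas 5.51% of all genes tested did. The same count was 0 by DESeq2 and 0 by limma, and 0 members passed 2-fold with an unadjusted p under 0.05. The median log2 fold change was 0.03 in the G1/S set and -0.17 in the G2/M set, against -0.0032 over all genes tested. The OE and NC samples did not overlap in 34 members, 14 of them with OE higher and 20 with OE lower, against 55.3% of all genes tested (28.2% with OE higher and 27.1% with OE lower). In bulk RNA, fewer cells in a phase of the cycle and less RNA of a gene per cell cannot be told apart.

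**Figure D1:**
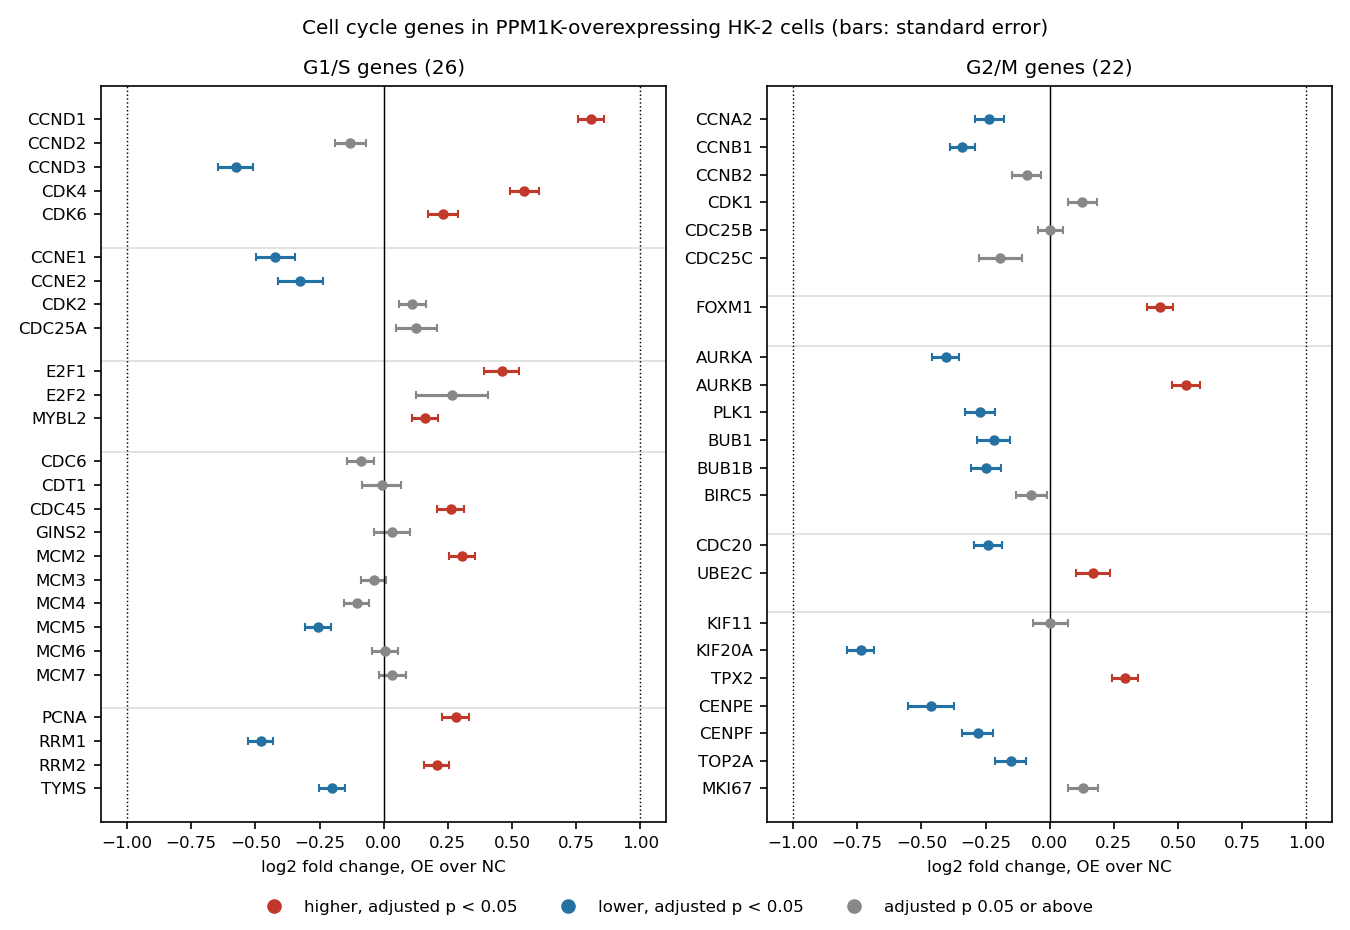
Log2 fold change of OE over NC (x axis) for each of the 48 genes (y axis), with bars of 1 standard error from edgeR, in a panel for the G1/S set and one for the G2/M set. The values run from 0.81 for CCND1 to -0.74 for KIF20A, and all lie inside the dotted lines, which mark 2-fold.

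**Figure D2:**
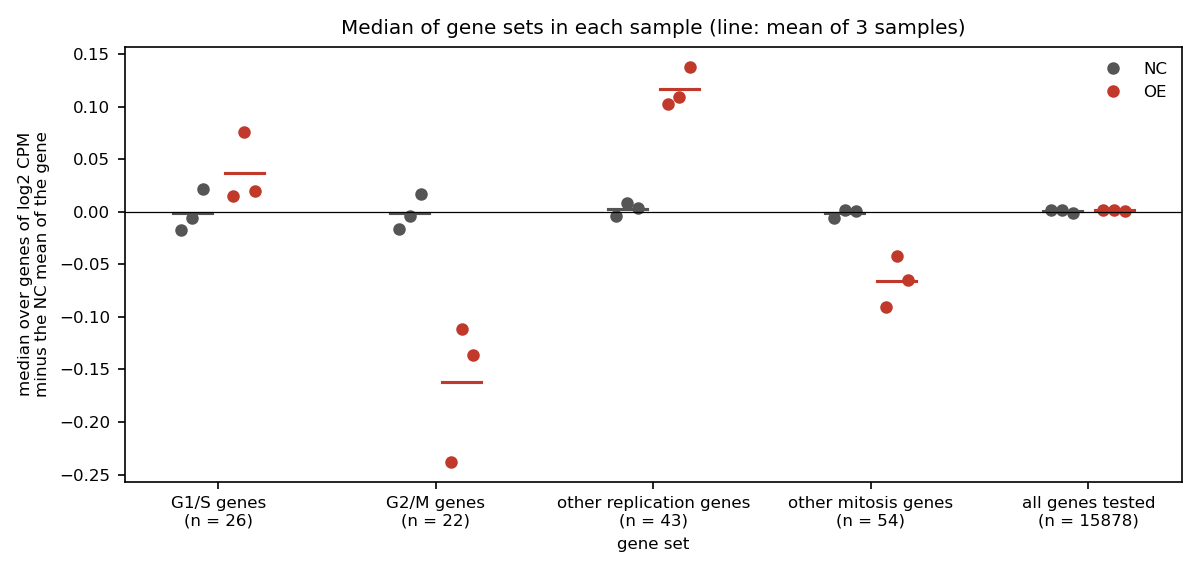
Median over the genes of a set of log2 CPM minus the NC mean of each gene (y axis), for each of the 6 samples (points). The G2/M set lies at -0.24, -0.11 and -0.14 in OE replicates 1, 2 and 3, while the G1/S set lies between -0.02 and 0.08 in all 6 samples.

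The promoters of these genes were read for 3 short sequence elements known from cell cycle genes. The E2F element was read as TTCCCGC or TTGGCGC, and also as the forms TTCGCGC and TTGCCGC. The cell cycle homology region (CHR), read here as TTTGAA or TTCGAA, is bound by the MuvB complex with B-MYB and FOXM1, and CCAAT boxes, bound by NF-Y, often stand before it. RefSeq windows from 250 bases before to 50 after the transcription start were given for 37 of the 48 genes, in 54 windows of GRCh38.p14, some of which overlap because a gene has several starts. Both strands were searched, and matches of different elements may share bases.

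At least 1 window held an E2F element in 14 of 20 G1/S genes (70.0%) and 4 of 17 G2/M genes (23.5%), against 15.3% of all 27305 genes. The CHR was found in 2 of 20 G1/S genes (10.0%), among them RRM1, and in 12 of 17 G2/M genes (70.6%), against 19.5% of all genes. A CCAAT box was found in 12 G1/S genes (60.0%) and 15 G2/M genes (88.2%), against 39.7% of all genes. In the G2/M set the CHR, in the forms searched, was found in 6 of 10 lower genes and in 6 of 6 genes that were not called. Other forms of the CHR were not searched, so genes without a match may still hold one. These counts therefore do not show that the lower genes hold it less often. In the G1/S set an E2F element, in the forms searched, was found in 8 of 8 genes not called, in 4 of 8 higher genes and in 2 of 4 lower genes. Other forms of the E2F element were not searched either. The windows of MYBL2 and CDC45, both higher, hold TTGGCGGGA, which was not among the forms counted. The E2F counts therefore do not show that the called genes hold the element less often. These are matches to letters and not measured binding.

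**Figure D3:**
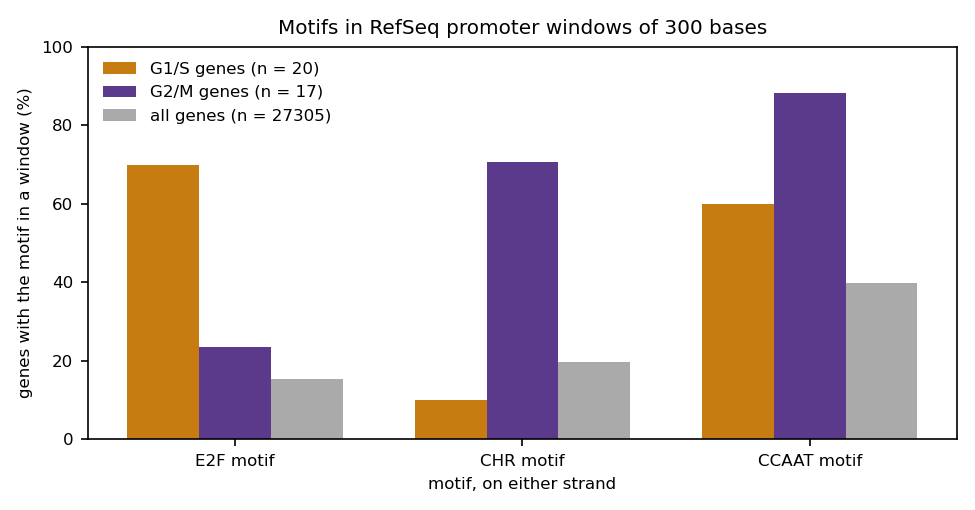
Percentage of genes (y axis) with an E2F element, a CHR or a CCAAT box in at least 1 promoter window, among 20 G1/S genes, 17 G2/M genes and all 27305 genes. The E2F element was found in 70.0% of the G1/S genes and the CHR in 70.6% of the G2/M genes.

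The D-type cyclins and their kinases, which start the passage through G1, held the largest rise of all 48 genes. CCND1 encodes cyclin D1, the main D-type cyclin of epithelial cells, and lies at chr11:69641156-69654474 on the plus strand. It was measured at 164, 181 and 176 CPM in NC and 299, 302 and 310.0 CPM in OE. Every OE sample was above every NC sample, and the level rose by 0.81 on the log2 scale (SE 0.05, adjusted p = 4.1e-11). CCND3, for cyclin D3 (chr6:41934934-42050357, minus strand), went the other way. Its values were 41.7, 38.2 and 42.7 CPM in NC and 26.6, 28.9 and 26.7 CPM in OE, again without overlap, and it fell by 0.58 on the log2 scale (SE 0.07, adjusted p = 5.5e-07). CCND2, for cyclin D2, was at 45.5, 45.3 and 47.1 CPM in NC and 42.2, 44.7 and 39.3 CPM in OE, and although the OE samples lay below the NC samples the difference did not pass the test (log2 fold change -0.13, SE 0.06, adjusted p = 0.089). Per transcript length, cyclin D1 made up 72.7, 75.5 and 73.5% of the summed FPKM of the 3 D-type cyclins in NC and 86.4, 85.7 and 87.2% in OE. Cyclin D1 was thus already the leading D-type cyclin in NC, and its share was larger in each OE sample.

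CDK4 and CDK6 are the catalytic partners of the D-type cyclins. CDK4 (chr12:57747727-57756013, minus strand) was measured at 510.3, 496 and 533 CPM in NC and 739, 804 and 709.6 CPM in OE, which separated the groups fully, and rose by 0.55 on the log2 scale (SE 0.05, adjusted p = 5.2e-08). CDK6 was at 51.7, 52.9 and 50.4 CPM in NC and 56.5, 60.9 and 64.4 CPM in OE and also rose, by 0.23 on the log2 scale (SE 0.06, adjusted p = 0.0025). In FPKM the kinases lay far apart, with 153 ± 6.75 FPKM in NC and 227 ± 14.3 FPKM in OE for CDK4 against 3.89 ± 0.0781 FPKM in NC and 4.63 ± 0.366 FPKM in OE for CDK6 (SD, n = 3). CDK4 overlaps TSPAN31 and CCND1 overlaps LTO1, each on the opposite strand. The library kit marks strand, but whether the counting used it is not given in the sources used here. The promoter of CCND3 at the first of its 3 listed starts (chr6:42048639-42048938, GRCh38.p14, minus strand) is shown because CCND3 fell the most in the G1/S set. Capitals would mark the 3 elements, and none was found in this window. The windows at starts 2 and 3, which are not shown, each held 1 CCAAT box.

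CCND3: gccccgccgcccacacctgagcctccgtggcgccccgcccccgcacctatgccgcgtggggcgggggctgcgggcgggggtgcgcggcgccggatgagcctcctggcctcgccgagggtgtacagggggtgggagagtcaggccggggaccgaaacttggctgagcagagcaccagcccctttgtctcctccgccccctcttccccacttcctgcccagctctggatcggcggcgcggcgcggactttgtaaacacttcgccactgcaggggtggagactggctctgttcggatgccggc

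Cyclin E and CDK2 act next, at the entry into S phase, and CDC25A is the phosphatase that activates CDK2. CCNE1, for cyclin E1, was measured at 29.5, 29.3 and 29.8 CPM in NC and 22.5, 23.7 and 19.96 CPM in OE and fell by 0.42 on the log2 scale (SE 0.08, adjusted p = 9.3e-05). CCNE2, for cyclin E2, was at 23.9, 29.1 and 23.3 CPM in NC and 19.8, 19.2 and 21.97 CPM in OE and fell by 0.33 on the log2 scale (SE 0.09, adjusted p = 0.0042). In both genes each OE sample lay below each NC sample, by the widest margin for CCNE1 in OE replicate 3. CDK2 was at 119, 132 and 132 CPM in NC and 138, 134 and 144 CPM in OE and had the highest level of this group, 30.4 ± 1.505 FPKM in NC and 33.3 ± 1.53 FPKM in OE, with a difference that did not pass the test (log2 fold change 0.11, SE 0.05, adjusted p = 0.089). For CDC25A the values were 15.4, 17.4 and 17.2 CPM in NC and 18.2, 17.7 and 18.8 CPM in OE, which likewise did not overlap and did not pass (log2 fold change 0.13, SE 0.08, adjusted p = 0.20).

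Of the transcription factors that switch on replication genes, E2F1 was at 34.7, 32.8 and 38.3 CPM in NC and 49.2, 50.02 and 46.2 CPM in OE, with every OE sample above every NC sample, and rose by 0.46 on the log2 scale (SE 0.07, adjusted p = 7.4e-06). E2F2 was the lowest of all 48 genes at 0.827 ± 0.146 FPKM in NC and 1.01 ± 0.140 FPKM in OE. Its values of 4.57, 4.26 and 5.87 CPM in NC and 5.04, 6.27 and 6.39 CPM in OE overlapped between the groups (log2 fold change 0.27, SE 0.14, adjusted p = 0.12). MYBL2 encodes B-MYB, which acts from S phase into G2, and it had the highest FPKM of the set, 279 ± 4.22 FPKM in NC and 317 ± 11.6 FPKM in OE. It was measured at 846, 850.4 and 829 CPM in NC and 944, 978 and 902 CPM in OE and rose by 0.16 on the log2 scale (SE 0.05, adjusted p = 0.012). The call of MYBL2 was lost without OE replicate 2 (adjusted p = 0.076).

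**Figure D4:**
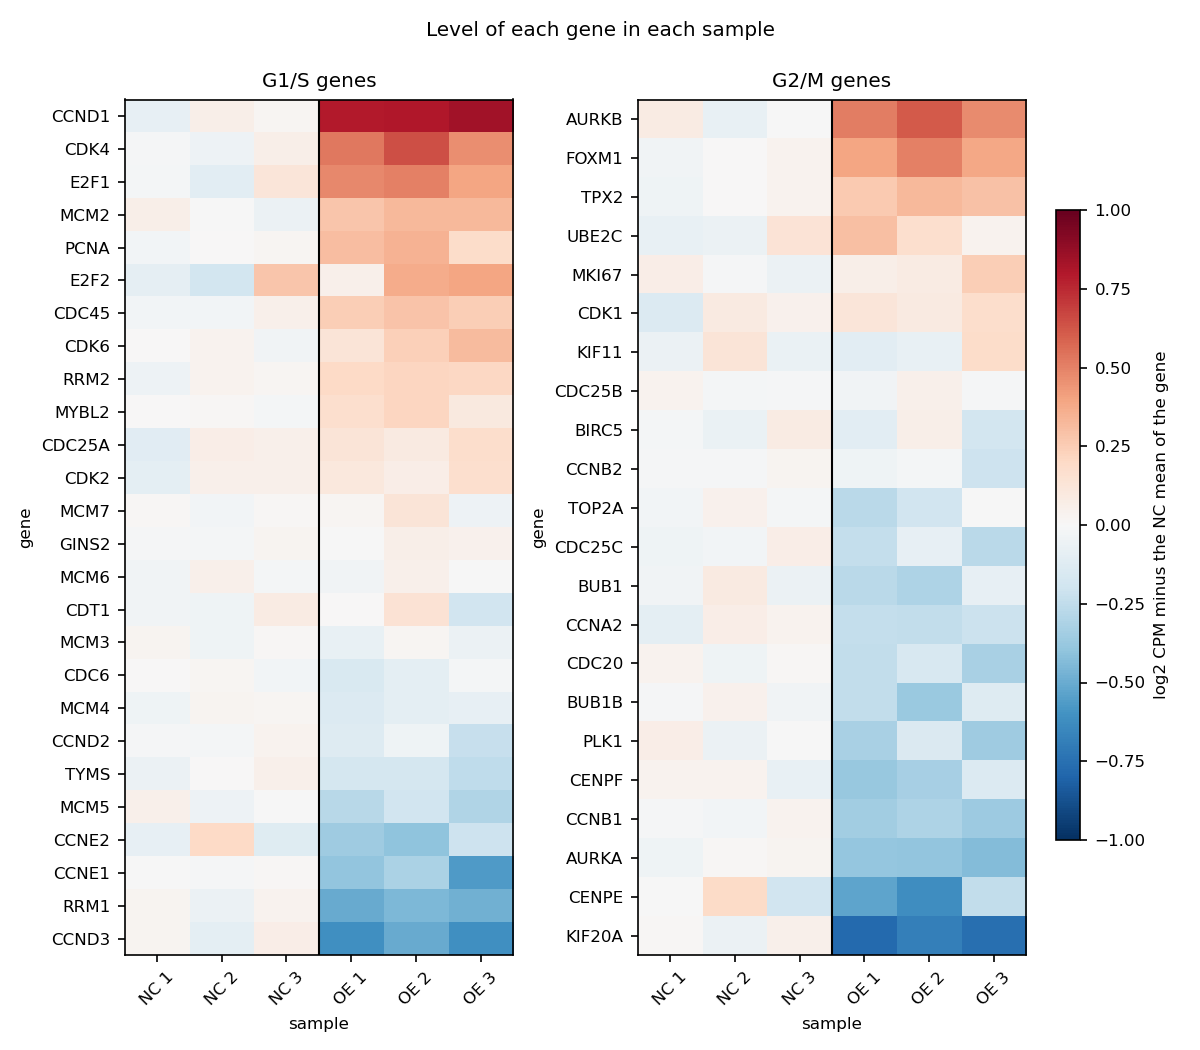
Log2 CPM minus the NC mean of the gene, as colour, for each gene (rows) in each of the 6 samples (columns), ordered within each set by fold change. The first rows of each panel are red and the last blue in all 3 OE samples, and the middle rows are pale in both groups.

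Licensing proteins load the MCM2-7 ring at origins before S phase, and CDC45 and GINS turn it into the active helicase. Of these 10 genes, 2 rose, 1 fell and 7 were not called. MCM2 (chr3:127598410-127622436, plus strand) was measured at 318, 305 and 294 CPM in NC and 369.8, 382 and 382 CPM in OE, fully separated, with a rise of 0.31 on the log2 scale (SE 0.05, adjusted p = 3.0e-05). CDC45 was at 65.2, 65.1 and 68.5 CPM in NC and 78.8, 80.9 and 78.5 CPM in OE and rose by 0.26 on the log2 scale (SE 0.05, adjusted p = 0.00026). MCM5, another subunit of the same ring, was at 193, 180.2 and 186 CPM in NC and 154, 164 and 151 CPM in OE and fell by 0.26 on the log2 scale (SE 0.05, adjusted p = 0.00027). The subunits of the ring thus did not move together. MCM3 had the highest level of the group, 119.7 ± 4.64 FPKM in NC and 118 ± 4.83 FPKM in OE, and its values of 483, 459 and 478 CPM in NC and 448, 479 and 455 CPM in OE overlapped (log2 fold change -0.04, SE 0.05, adjusted p = 0.54). MCM6 was nearly level at 122, 129.8 and 124 CPM in NC and 122, 130.0 and 125 CPM in OE (log2 fold change 0.00, SE 0.05, adjusted p = 0.95). The other members were not called, with log2 fold changes of -0.11 for MCM4, 0.03 for MCM7, -0.09 for the loading factor CDC6, -0.01 for its partner CDT1 and 0.03 for GINS2. The MCM2 promoter (chr3:127598161-127598460, GRCh38.p14, plus strand) is printed as an example of a replication gene that rose and holds E2F elements, chosen after its values were seen. Capitals mark the TTCGCGC matches, 1 on each strand, which overlap just after the start.

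MCM2: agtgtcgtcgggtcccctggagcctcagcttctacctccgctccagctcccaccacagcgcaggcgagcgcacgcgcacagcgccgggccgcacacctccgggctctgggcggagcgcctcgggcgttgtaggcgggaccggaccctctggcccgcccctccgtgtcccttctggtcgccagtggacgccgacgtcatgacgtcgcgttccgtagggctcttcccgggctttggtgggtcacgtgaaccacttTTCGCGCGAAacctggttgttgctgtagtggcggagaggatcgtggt

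The sliding clamp and the enzymes that supply nucleotides were all called, 2 in each direction. PCNA, the clamp that holds polymerases on DNA, was at 176, 180.0 and 182 CPM in NC and 222, 229 and 203 CPM in OE and rose by 0.28 on the log2 scale (SE 0.05, adjusted p = 0.00014). RRM1 and RRM2 are the large and small subunits of ribonucleotide reductase, which makes deoxyribonucleotides. RRM1 was at 262, 246 and 263 CPM in NC and 181, 188 and 184 CPM in OE and fell by 0.48 on the log2 scale (SE 0.05, adjusted p = 7.4e-08). RRM2 moved the opposite way, at 181, 193 and 191 CPM in NC and 216, 219 and 218 CPM in OE, a rise of 0.21 on the log2 scale (SE 0.05, adjusted p = 0.0013). In neither subunit did the groups overlap. TYMS, thymidylate synthase, had the highest FPKM of the group (148 ± 5.24 FPKM in NC and 131 ± 2.90 FPKM in OE) and was measured at 374, 389.6 and 404 CPM in NC and 344, 345 and 326 CPM in OE, a fall of 0.20 on the log2 scale (SE 0.05, adjusted p = 0.0024). PCNA, RRM2 and TYMS each have 2 or 3 pseudogenes in the annotation, to which reads could also map, so their counts are less certain. The same holds for CCND3 and AURKA, with 2 pseudogenes each, and so for the ratios that include them.

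Several closely related genes therefore moved in opposite directions. These pairs were chosen after their values were seen, so their FPKM ratios are a description without a test. The ratio of CCND1 to CCND3 was 5.15 ± 0.51 in NC and 13.4 ± 0.7 in OE (SD, n = 3). For RRM2 to RRM1 it was 0.34 ± 0.02 in NC and 0.55 ± 0.01 in OE. The ratio of MCM2 to MCM5 was 2.53 ± 0.09 in NC and 3.74 ± 0.15 in OE. In contrast, CCNE1 to CCNE2, which fell together, stayed at 2.10 ± 0.26 in NC and 1.95 ± 0.30 in OE, within the spread between samples. CCNB1 to CCNB2 went from 3.02 ± 0.02 in NC down to 2.54 ± 0.14 in OE.

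**Figure D5:**
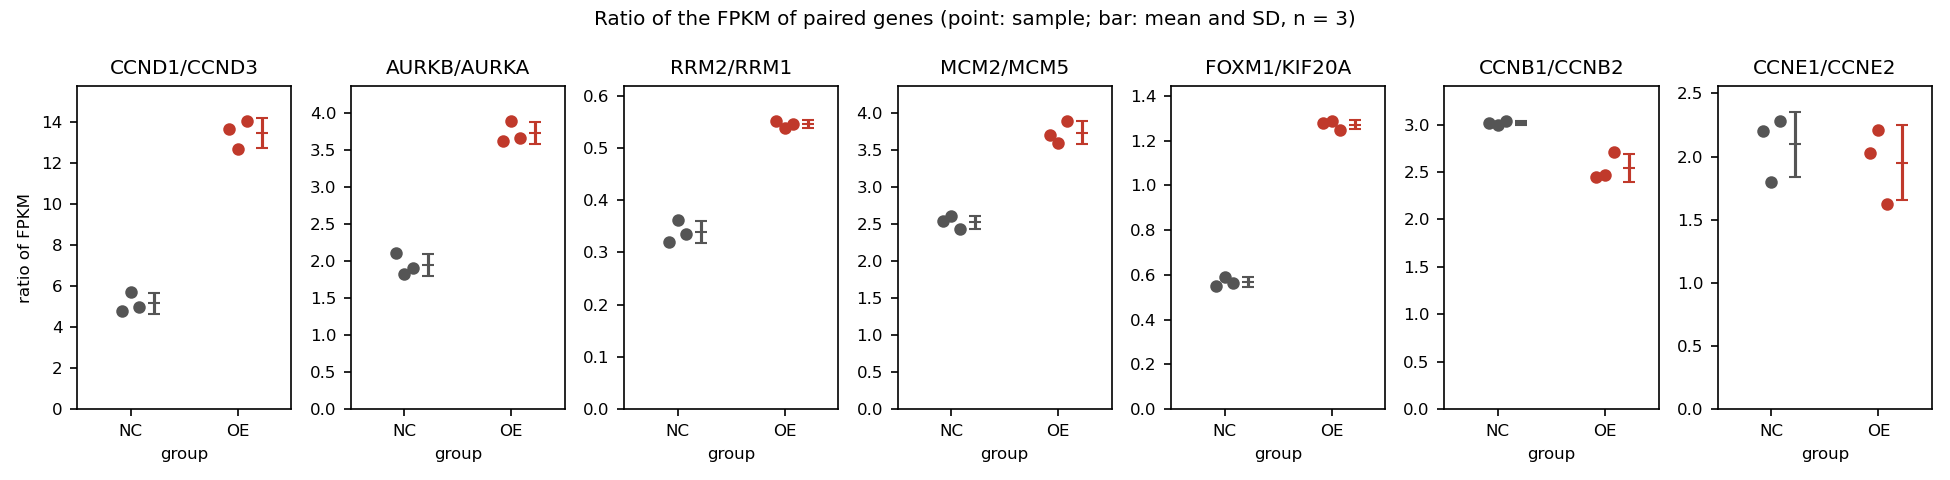
Ratio of the FPKM of 2 related genes (y axis, linear from 0) in each NC and OE sample (points), with the mean and SD of each group (n = 3). For CCND1/CCND3 and AURKB/AURKA the 3 OE samples lie above the 3 NC samples, as they do for RRM2/RRM1, MCM2/MCM5 and FOXM1/KIF20A, for CCNB1/CCNB2 they lie below, and for CCNE1/CCNE2 the groups overlap.

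In the G2/M set, 2 of the 6 genes for mitotic cyclins, CDK1 and its phosphatases fell and 4 were not called. CCNB1, for cyclin B1, which drives entry into mitosis, had the highest level at 72.5 ± 2.08 FPKM in NC and 58.1 ± 1.16 FPKM in OE. It was measured at 190.0, 188 and 196 CPM in NC and 151, 154 and 149 CPM in OE, with the OE samples close to each other and below all NC samples, and fell by 0.34 on the log2 scale (SE 0.05, adjusted p = 5.3e-06). CCNA2, for cyclin A2, was at 63.4, 71.1 and 69.6 CPM in NC and 57.5, 57.4 and 58.5 CPM in OE and fell by 0.23 on the log2 scale (SE 0.06, adjusted p = 0.0015). Their kinase CDK1 was not called, with a log2 fold change of 0.13. The CDK1-activating phosphatase CDC25B was at 144, 139 and 139 CPM in NC and 137, 146 and 139 CPM in OE, with overlapping groups (log2 fold change 0.00, SE 0.05, adjusted p = 0.97). CCNB2 at -0.09 and CDC25C at -0.19 did not pass the test either.

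FOXM1, the factor that switches on many mitotic genes, rose while most of the genes of the G2/M set that were called fell. It was measured at 93.0, 95.3 and 97.5 CPM in NC and 125, 135 and 125 CPM in OE, every OE sample above every NC sample, a rise of 0.43 on the log2 scale (SE 0.05, adjusted p = 5.8e-07). FOXM1 overlaps ITFG2 and RHNO1 on the opposite strand.

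Of the mitotic kinases and spindle checkpoint genes, 4 fell and 1 rose. Aurora kinases A and B moved apart. AURKA, the kinase of the spindle poles, was at 65.5, 68.0 and 68.4 CPM in NC and 51.5, 51.3 and 49.7 CPM in OE and fell by 0.41 on the log2 scale (SE 0.05, adjusted p = 2.1e-06). AURKB (chr17:8204733-8210600, minus strand), the kinase of the centromeres, was at 106, 94.97 and 99.7 CPM in NC and 143, 153 and 139 CPM in OE, the largest rise of the G2/M set (log2 fold change 0.53, SE 0.05, adjusted p = 7.0e-08). Neither pair of groups overlapped, and the ratio of AURKB to AURKA in FPKM, a pair again chosen after its values were seen, was 1.95 ± 0.15 in NC and 3.72 ± 0.15 in OE (SD, n = 3). PLK1, which acts in spindle assembly and cytokinesis, was at 88.2, 80.7 and 83.8 CPM in NC and 67.3, 76.2 and 65.7 CPM in OE and fell by 0.27 on the log2 scale (SE 0.06, adjusted p = 0.00075). BUB1B, for the checkpoint protein BUBR1, was at 99.6, 103 and 97.7 CPM in NC and 84.5, 77.6 and 91.4 CPM in OE and fell by 0.25 on the log2 scale (SE 0.06, adjusted p = 0.0013), and OE replicate 3 lay nearest to NC. BUB1B overlaps PAK6 and BUB1B-PAK6 on the same strand. BIRC5, for survivin, a partner of Aurora B, had overlapping values of 131, 127 and 141 CPM in NC and 124, 139 and 117 CPM in OE (log2 fold change -0.07, SE 0.06, adjusted p = 0.33). BUB1 fell by 0.22 on the log2 scale (SE 0.06, adjusted p = 0.0077), but its call was lost without NC replicate 2 (adjusted p = 0.068), without OE replicate 1 (0.054) and without OE replicate 2 (0.061). The AURKB promoter at the first of 2 listed starts (chr17:8210176-8210475, GRCh38.p14, minus strand) is shown as that of the gene with the largest rise in the set, and PLK1 (chr16:23678639-23678938, plus strand) beside it, chosen after its values were seen, as a gene that fell and holds a CHR with a CCAAT box before it. Capitals mark CCAAT on either strand in both sequences and, in PLK1, also the TTTGAA that begins 29 bases before the start.

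AURKB: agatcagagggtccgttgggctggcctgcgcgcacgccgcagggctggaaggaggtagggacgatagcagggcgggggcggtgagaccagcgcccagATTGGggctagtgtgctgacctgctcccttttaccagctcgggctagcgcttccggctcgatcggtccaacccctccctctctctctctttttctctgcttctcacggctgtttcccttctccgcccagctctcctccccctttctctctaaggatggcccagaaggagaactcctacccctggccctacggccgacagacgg
PLK1: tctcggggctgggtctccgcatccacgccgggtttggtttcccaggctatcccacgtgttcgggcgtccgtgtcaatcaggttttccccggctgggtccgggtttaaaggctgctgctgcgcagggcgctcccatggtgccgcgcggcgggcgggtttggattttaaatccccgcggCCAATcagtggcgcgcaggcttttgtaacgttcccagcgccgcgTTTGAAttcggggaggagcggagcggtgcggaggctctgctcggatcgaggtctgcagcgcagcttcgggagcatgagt

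The 2 genes of the anaphase-promoting complex differed. CDC20, the activator that directs the complex to its targets, was at 69.5, 65.7 and 68.3 CPM in NC and 57.3, 60.6 and 54.3 CPM in OE and fell by 0.24 on the log2 scale (SE 0.06, adjusted p = 0.0013). UBE2C, the ubiquitin-conjugating enzyme of the complex, was at 81.1, 81.9 and 93.6 CPM in NC and 105, 95.6 and 87.4 CPM in OE, with OE replicate 3 inside the NC range, and its rise of 0.17 on the log2 scale (SE 0.07, adjusted p = 0.042) was just past the threshold. The call of UBE2C was lost without NC replicate 1 (adjusted p = 0.17), NC replicate 2 (0.14), OE replicate 1 (0.24) and OE replicate 2 (0.071). UBE2C has 5 annotated pseudogenes.

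Of the spindle motors, kinetochore and chromosome proteins, 4 fell, 1 rose and 2 were not called. KIF20A (chr5:138178719-138187723, plus strand), a kinesin needed for cytokinesis, had the largest fall of all 48 genes. It was measured at 133, 127 and 136 CPM in NC and 76.9, 81.9 and 78.2 CPM in OE, far apart between the groups, and fell by 0.74 on the log2 scale (SE 0.05, adjusted p = 2.1e-10), so that its level decreased by 40%. TPX2, which activates Aurora A on the spindle, was at 472, 488 and 499 CPM in NC and 583, 608 and 597 CPM in OE and rose by 0.29 on the log2 scale (SE 0.05, adjusted p = 4.4e-05). It also had the highest FPKM of the group (124 ± 3.17 FPKM in NC and 155 ± 4.90 FPKM in OE). The kinetochore motor CENPE was at 52.2, 59.9 and 45.8 CPM in NC and 36.2, 34.1 and 44.2 CPM in OE and fell by 0.46 on the log2 scale (SE 0.09, adjusted p = 0.00021). CENPF, another large kinetochore protein, was at 862, 865 and 799 CPM in NC and 647, 668 and 764 CPM in OE and fell by 0.28 on the log2 scale (SE 0.06, adjusted p = 0.00058). In both kinetochore genes OE replicate 3 was the highest OE sample. KIF11, the motor that separates the spindle poles, was at 94.9, 108 and 94.3 CPM in NC and 91.9, 93.8 and 112 CPM in OE, also highest in OE replicate 3, and the groups overlapped (log2 fold change 0.00, SE 0.07, adjusted p = 0.98). MKI67, the proliferation marker Ki-67, was not called, with a log2 fold change of 0.13 (SE 0.06, adjusted p = 0.071). Its call depended on the fit, as it was called higher by DESeq2, without a filter on low counts and without OE replicate 1. TOP2A, the topoisomerase that untangles chromosomes, fell by 0.15 on the log2 scale (SE 0.06, adjusted p = 0.039), but OE replicate 3 lay inside the NC range, and leaving out any of the other 5 samples lost the call of TOP2A (adjusted p = 0.078 to 0.26). FOXM1 and KIF20A, taken as a pair after their values were seen, had an FPKM ratio of 0.57 ± 0.02 in NC and 1.27 ± 0.02 in OE. The KIF20A promoter (chr5:138178862-138179161, GRCh38.p14, plus strand) is shown as that of the gene that fell the most; capitals mark its CCAAT boxes, both on the minus strand. KIF20A overlaps BRD8 and CDC23 on the opposite strand.

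KIF20A: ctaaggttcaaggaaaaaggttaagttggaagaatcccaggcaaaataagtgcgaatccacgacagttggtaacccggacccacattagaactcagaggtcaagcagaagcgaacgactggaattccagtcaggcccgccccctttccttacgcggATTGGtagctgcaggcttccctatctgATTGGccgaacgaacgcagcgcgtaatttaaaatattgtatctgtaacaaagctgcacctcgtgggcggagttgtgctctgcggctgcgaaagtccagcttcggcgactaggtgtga

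The base composition of the annotated transcripts moved with these results. GC content was taken as the median over all annotated transcripts of a gene, which need not be the forms expressed in these cells. Over the 48 members the Spearman correlation of log2 fold change with transcript GC content was 0.38, against -0.06 over 15854 genes. The median GC content was 54.8% for the higher and 44.96% for the lower members. Among the lists read below, the correlation was 0.31 over 54 other mitosis genes. Over 43 genes for origin recognition, the replication fork and DNA precursors it went the other way, at -0.22. Within groups, the departure of a sample from its group mean also went with GC content over the 48 members, with a Spearman correlation of -0.61 for NC replicate 2, -0.51 for OE replicate 3 and 0.58 for OE replicate 2. These points share libraries and the values are descriptions. After an offset for GC content was fitted in each sample, all 30 called members stayed called and MCM4 and CDC25C were added. The offset was fitted over all genes, whose fold changes hardly followed GC content (-0.06). It could therefore remove little of a trend seen in the members, and the part of base composition in their calls was not tested.

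Other genes of the same pathways, from 6 lists, were read for comparison. The lists were written with earlier results of these data known, and the log2 fold changes of their tested members ran from -0.995 to 0.66. Their counts stand beside the shares of all genes tested, 24.9% higher and 23.7% lower, and of genes with counts like those of the members, 32.9% and 25.9%. Among 11 CDK inhibitors and RB family genes, which hold the cycle back, 4 rose and 4 fell. RBL2, for the pocket protein p130, fell by 1.00 on the log2 scale (adjusted p = 9.3e-10), CDKN1B, for the inhibitor p27, by 0.72 on the log2 scale (adjusted p = 4.2e-09), and CDKN2C, for the CDK4 and CDK6 inhibitor p18, by 0.82 on the log2 scale (adjusted p = 4.5e-09). Of 13 other E2F, DP and MuvB genes, 4 rose and 1 fell, or 2 fell without OE replicate 2 or OE replicate 3. The fall was in RBBP4, a chromatin protein and MuvB subunit (log2 fold change -0.43, adjusted p = 6.8e-07), and the rises included the E2F factors E2F4 (log2 fold change 0.39, adjusted p = 2.3e-06) and E2F7 (log2 fold change 0.50, adjusted p = 5.4e-05).

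Of 43 genes for origin recognition, the replication fork and DNA precursors, 18 (41.9%) rose and 7 (16.3%) fell, with a median log2 fold change of 0.11. LIG1, the DNA ligase of replication, fell by 0.44 on the log2 scale (adjusted p = 5.4e-07), while DTL, the adaptor that marks CDT1 for destruction, rose by 0.66 on the log2 scale (adjusted p = 4.8e-08). Of 54 other mitosis genes tested, 8 (14.8%) rose and 21 (38.9%) fell, with a median of -0.07. The smallest p-values were those of the spindle genes DLGAP5, which fell by 0.66 on the log2 scale (adjusted p = 3.7e-09), ASPM, by 0.66 on the log2 scale (adjusted p = 6.2e-09), and HMMR, by 0.61 on the log2 scale (adjusted p = 7.6e-08). NUSAP1 was listed but had too few counts to be tested. Leaving out each sample in turn gave 15 to 22 lower genes in this list, but the 8 rises were 5 without NC replicate 1, 5 without NC replicate 3 and 4 without OE replicate 3.

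Among 9 checkpoint and CDK-regulating kinase genes, 5 rose and 1 fell, or 2 fell without OE replicate 3. MNAT1, a subunit of the CDK-activating kinase, rose by 0.48 on the log2 scale (adjusted p = 1.2e-07) and CHEK1, the replication checkpoint kinase, by 0.30 on the log2 scale (adjusted p = 0.00061). WEE1, which restrains CDK1, fell by 0.46 on the log2 scale (adjusted p = 0.00012). Of 17 genes of the anaphase-promoting complex, the SCF ligase and their inhibitor, 4 (23.5%) rose and 5 (29.4%) fell, which is near the shares of all genes. The 4 rises were 2 without NC replicate 1, without NC replicate 3 or without OE replicate 2. The complex subunits ANAPC4 and CDC23 fell by 0.45 on the log2 scale (adjusted p = 0.00029) and by 0.35 on the log2 scale (adjusted p = 5.7e-05), and FBXO5, the early mitotic inhibitor of the complex, rose by 0.26 on the log2 scale (adjusted p = 0.00068). CDC23 overlaps KIF20A on the opposite strand, and both fell.

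Markers of cell types were read to check the label of the cells. Of 14 tubule epithelial markers, 11 were tested, 2 rose and 5 fell, and the summed FPKM was 804 to 901 in NC and 701 to 762 in OE. AQP1 had 0 to 5 counts, CUBN 0 to 6 and LRP2 0 to 1 in any sample, while keratins were high. These genes of the proximal tubule were thus at or near 0. The other listed genes, GGT1, ANPEP and SLC34A1 among them, had enough counts to be tested, so the low genes do not stand for the whole list. The 5 fibroblast markers summed to 2.93 to 3.08 FPKM in NC and 1.1 to 1.15 in OE. LUM and COL1A1 were the 2 tested and both fell, and DCN was at 0 counts in every OE sample. The 4 endothelial markers summed to 0.56 to 0.71 FPKM in NC and 0.78 to 0.90 in OE, and of the 3 tested 2 rose. The 4 leukocyte markers were not tested, with a sum of 0.18 to 0.26 FPKM in NC and 0.07 to 0.08 in OE. For comparison, the 48 members summed to 2059 to 2121 FPKM in NC and 2203 to 2323 in OE. The part of the tubule and fibroblast markers' change in the results of the cell cycle genes was not tested.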

How the data were processed

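The authors sequenced strand-specific mRNA libraries of 3 NC and 3 OE samples. Per the labels and methods, reads were trimmed with FASTX-Toolkit, aligned with HISAT2 to GRCh38, and uniquely mapped reads were counted per gene. The deposited table holds these raw counts for 31369 genes. The authors also deposited FPKM, which is normalized to transcript length and mapped fragments, for 30896 genes. The build field of the labels also lists mm10, but the tables hold human genes. Annotation, counting program and use of strand are not given in the sources used here, so counts of overlapping genes (26 of the 48 members) and of genes with pseudogenes are uncertain.

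The counts were tested with edgeR 4.0.16 in R 4.3.3 (filterByExpr, TMM, glmQLFit and glmQLFTest, OE over NC, Benjamini-Hochberg adjustment over the 15878 genes tested, threshold 0.05). DESeq2 1.42.0, limma 3.58.1 on log2(FPKM + 1) or log2(FPKM + 0.1), other normalizations and filters, a replicate block and leaving out each sample were alternatives. Offsets for transcript GC content and length were added after seeing the data. The code for the tests was tested on simulated data. Gene coordinates, GC content and length came from GENCODE release 44 (99.8% of genes matched), and promoters from RefSeq. Length, like GC content, was the median over all annotated transcripts of a gene, short ones included.

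The members and all lists were chosen with earlier results of these data known. For each role, values per sample are given for up to 4 called members with the smallest p, the member with the highest mean FPKM and that with the largest p, and other members by log2 fold change. From each pathway list the 3 members with the smallest p are named, except 1 that is not reported here. Promoters follow the 2 largest changes of each phase and the D-type cyclins where listed, and PLK1 and MCM2 were added after their values were seen.

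No pair of replicates agreed within counting noise (mean chi-square per gene 5.13 to 11.8), so none was treated as a repeat deposit of another; this does not show that they came from separate cultures.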

Additional observations from a re-analysis of the deposited data

How the results depend on the processing

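Of the 30 called members, 21 to 30 were still called under each of the 17 alternatives, and none of them changed direction. All 30 stayed called with DESeq2 size factors, either count filter, the length offset or the GC content offset, and without OE replicate 3. The GC content offset added MCM4 and CDC25C, the fit without a filter added MKI67, and leaving out OE replicate 3 added CDC6 and MCM4. DESeq2 kept 28 calls, lost UBE2C and TOP2A and added MKI67. Upper quartile normalization also kept 28, lost MYBL2 and UBE2C and added CCND2, CDC6, MCM4 and CDC25C. Leaving out other samples added E2F2, MKI67, CDK1 or CDC25C. The number of lower G2/M genes was 11, but 5 with limma on log2(FPKM + 1) without a filter, where 9 calls were lost (CDK6, CCNE2, PLK1, BUB1, BUB1B, UBE2C, CENPE, CENPF and TOP2A); the cause was not tested. The median log2 fold change of the G1/S set was 0.03 and turned to -0.0040 with upper quartile normalization, which moved the median of all genes tested from -0.0032 to -0.041. With that normalization 3463 genes were higher and 4256 lower, against 3949 and 3766 with TMM. The number of all genes called lower was 3766 of 15878 tested. It was 2466 and 2462 of 10766 with filtered limma at pseudocounts of 1 and 0.1, and 2499 of 30896 with limma without a filter. These fits tested different numbers of genes, so their counts of lower genes cannot be compared directly. Filtered limma gave no value for E2F2. The median of all genes was -0.13 without a filter, where more low-count genes entered, and -0.13 with DESeq2, where the cause was not tested. Leaving out each sample in turn gave G1/S medians of 0.0057 to 0.073 and G2/M medians of -0.19 to -0.14, with 8 to 10 higher and 6 to 8 lower G1/S genes and 3 to 4 higher and 9 to 11 lower G2/M genes. Counting MYBL2 as G2/M and CCNA2 as G1/S changed no direction. Beside the changes by single samples given in the report, upper quartile normalization gave 2 higher genes of the APC/C and SCF list, 5 lower E2F, DP and MuvB genes (3 with the GC content offset or a minimum of 10 counts, and 2 without a filter) and 2 lower checkpoint kinase genes (also 2 with the GC content offset), and limma without a filter gave 3 higher genes of the other mitosis list.

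The groups share replicate numbers, but same-numbered samples did not deviate together (correlations of -0.0032, -0.066 and -0.054), and not every sample correlated best with its own number. With the replicate number as a block, 8 G1/S genes were higher and 6 lower, 3 G2/M genes were higher and 10 lower, 0 members passed 2-fold, the medians were 0.03 and -0.18, and 27 of the 30 calls remained, without MYBL2, UBE2C and TOP2A. The block also gave 2 higher genes of the APC/C and SCF list.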
